A study of Rattus norvegicus with 15 samples.

Results

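Ribosomal proteins of the cytoplasmic ribosome are the subject here, followed at the level of their mRNAs in the femurs of ovariectomised rats. Rows were taken whose gene name is Rpl or Rps followed by a number, with or without a closing a or x, or Rplp0, Rplp1 or Rplp2. This gave 75 of the 30454 genes in the deposited tables. They carry 69 distinct names, because Rps13, Rpl22, Rps6, Rpl30, Rpl35a and Rpl21 each stand for 2 rows. Of the 75 rows, 42 are proteins of the large subunit, 30 are proteins of the small subunit and 3 are the acidic proteins of the stalk. Polyadenylated RNA was sequenced in 5 groups of 3 libraries from female Sprague-Dawley rats, aged 8 weeks at the start. J rats were ovariectomised and received a Juglans regia (walnut) extract at 1.6 g/kg/d. P rats were ovariectomised and received a Psoralea corylifolia extract at 2.4 g/kg/d. PJ rats were ovariectomised and received both extracts combined, at 4.0 g/kg/d. OVX rats were ovariectomised and received saline. Sham rats kept their ovaries, had fat near the ovaries removed and received saline. All rats had 7 days of adaptation, 6 weeks of recovery after surgery and 8 weeks of treatment. The labels do not say that each library is a separate rat, so the p-values below measure the spread between libraries, which may be partly technical.

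A ribosome holds about as many copies of each of its proteins as of its RNA strands, and the genes of these proteins are among the most strongly transcribed in growing cells. Their mRNAs in vertebrates typically start at a cytosine followed by a run of pyrimidines, the terminal oligopyrimidine tract. Through it the growth kinase mTOR and the binding protein Larp1 regulate how well these mRNAs are translated and how long they persist. Loss of a single copy of many of these genes in humans causes Diamond-Blackfan anaemia, a failure of red cell production, which makes the group of interest in marrow-bearing bone.

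The start sites of a few members are shown because the tract is typical of these mRNAs. Each is 30 bases, 20 before the annotated start and 10 from it, taken from RefSeq on build GRCr8, with the run of C and T that holds the first transcribed base in capitals. The expression tables use another build, mRatBN7.2, so these coordinates apply to the sequences only. Rps15, Rplp0, Rpl19, Rps16 and Rpl10 are the 5 members with the highest level. Rpl10a and Rpl37 were called higher in OVX than in Sham, Rpl39 was called lower, and Rpl18 is a called member with another kind of start.
Rps15, chr7:10068106-10068135, minus strand: gcagccgctgacaccgCTTCCTTTTCCCag
Rplp0, chr12:46718381-46718410, minus strand: ctggtgaccgcaccgcaCTTCTCTCgccag
Rpl19, chr10:83519044-83519073, plus strand: gagcccgcgaccagcaagCTCTTTCCTTTC
Rps16, chr1:92770638-92770667, plus strand: cagaccctggaaaatcggtcggggtggccc
Rpl10, chrX:157205830-157205859, plus strand: atgcgcaggcgtgggagcgTCTCTTTTCCT
Rpl10a, chr20:6390513-6390542, plus strand: tgcgcgaaaccttctgCCTTCTTTTCCggt
Rpl37, chr2:55942925-55942954, plus strand: ggaagtggtaggcgtaCTTTCTCTTCCggt
Rpl39, chrX:121195887-121195916, minus strand: cagcgtcttctaatcgcgTTCTTCCggcct
Rpl18, chr1:105325250-105325279, plus strand: gtctttctggacctggtctagcaggaggcg

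RefSeq gave 56 start sites for 55 of the 69 names, and none for Rps29 or Rpl15, which are described below. At 21 of the 56 (37.5%) the annotated start was a C followed by 4 more pyrimidines, against 550 of 21851 (2.52%) protein-coding starts of the whole table. With a window of 10 bases to either side of the start, a C with 4 pyrimidines after it was found on the transcribed strand of 42 of the 56 (75%), against 23.3% of all starts. On the opposite strand of that window it was found at 4 of the 56 (7.14%), against 28.9% of all. In the 300 bases around the start, 250 before and 50 after, the motif CCGGAAG on either strand was present in 17 members (30.4%) and in 10.7% of all. AAGATGG on either strand was present in 10 members (17.9%) and in 7.29% of all. These are matches of letters in the annotated window and show no binding. The 21 names with the strict pyrimidine start had a median level of 216 FPKM (fragments per kilobase and per 1000000 reads), against 101.03 FPKM for the 34 with another start. Of their 23 tested rows, 4 were called higher and 1 lower in OVX against Sham, and of the 35 rows of the others 5 were called higher and 0 lower, where 25.3% and 28.9% of all genes tested were called higher and lower.

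Levels of the members spanned 0.035 to 1147 FPKM, a scale that is per transcript length. Rps15, a small-subunit protein, was highest at 1147 FPKM over the 15 libraries. It was followed by Rplp0, the stalk base that anchors the other acidic proteins, at 1100 FPKM, then by Rpl19 at 823 FPKM, Rps16 at 753 FPKM and Rpl10 at 707 FPKM. In all, 38 members averaged at least 100 FPKM, 19 lay between 10 and 100, 15 between 1 and 10, and 3 under 1, with a median of 109 FPKM. The 38 held 94.3% of the members' summed FPKM and the top 5 held 26.5%. The 3 lowest, Rpl38 and the second rows of Rpl21 and Rpl30, were not tested.

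Rows named as copies of a member (pseudogenes and loci marked l or like) were also listed at high levels. The tables have 83 such rows, 76 of them named after a member, and 17 of the 83 averaged at least 100 FPKM. Rps27a, the ubiquitin fusion protein whose ribosomal part sits in the small subunit, was listed at 11.3 FPKM, while Rps27a-ps1 was listed at 852 FPKM. Rpl37 was listed at 5.75 FPKM and Rpl37l1 at 834 FPKM. Rps4x was listed at 7.92 FPKM and Rps4x-ps9 at 691 FPKM. Rps21 was listed at 12.3 FPKM and Rps21-ps1 at 658 FPKM. For 16 of the 69 names, copies held over 50% of the summed level, and adding the copies moved the median over names to 298 FPKM, against 135 FPKM without them. All copy rows together held 1.58% to 2.32% of a library's FPKM. RefSeq names 745 pseudogenes after these 69 genes, from 2 to 33 a gene. How reads that match several loci were counted is a step for which the sources used here give no setting, so the level of a single member, and the fold change of a low one, is uncertain where a copy takes most of the reads. Copies were found by name only, and 4319 genes carry no name. Rps29, at 21.8 FPKM, and Rps19, at 6.33 FPKM, had almost no FPKM in named copies, but RefSeq names 15 pseudogenes after each. Their levels and fold changes may be uncertain too.

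**Figure D1:**
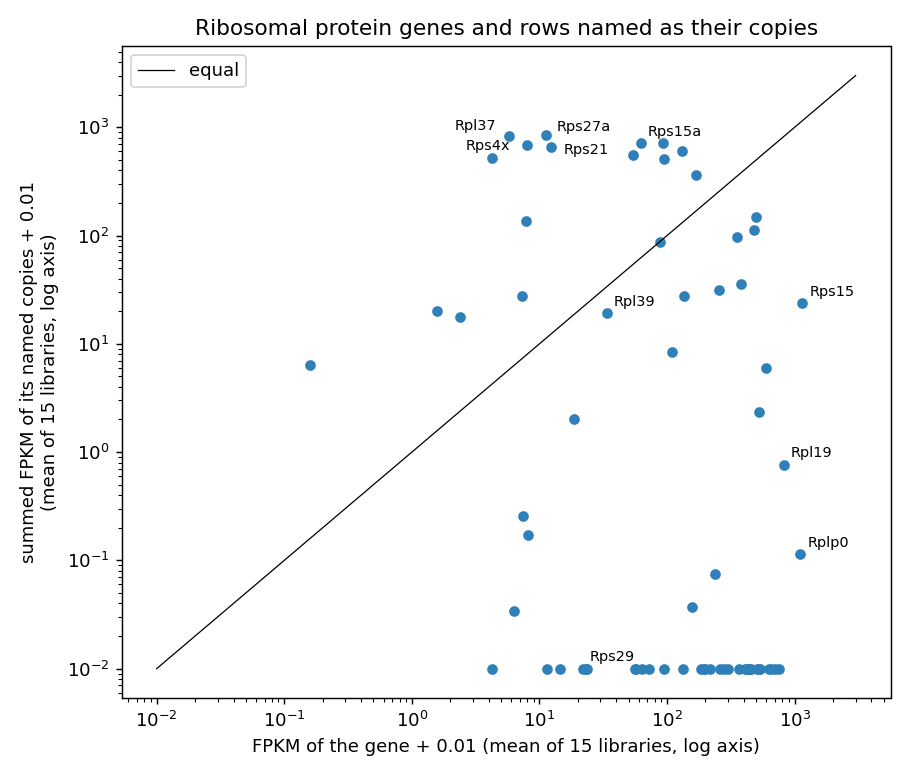
Mean FPKM over 15 libraries of each of the 69 ribosomal protein names (horizontal, log axis) against the summed FPKM of the rows named as its copies (vertical, log axis), each plus 0.01 so that 0 can be drawn; points above the line have more FPKM in copies. Rps27a, Rpl37, Rps4x and Rps21 lie far above the line, while Rps15, Rplp0 and Rpl19 lie far below it.

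Libraries held 34.4 to 61.0 reads in units of 1000000, as inferred from the steps between deposited FPKM values. The lowest count of a tested member in a library was 4 reads. The femurs differed greatly in cell type markers, and these values bear on every comparison below. The 12 erythroid markers summed to 17352 to 21015 FPKM in J, 3272 to 9251 in P, 1294 to 5842 in PJ, 30856 to 41477 in OVX and 365 to 2236 in Sham. The 12 neutrophil markers summed to 9376 to 23165 FPKM in J, 3609 to 6935 in P, 1852 to 9092 in PJ, 20438 to 23733 in OVX and 271 to 646 in Sham. The 8 cartilage markers summed to 2.69 to 157 FPKM in J, 27.5 to 2403 in P, 4.90 to 696 in PJ, 1.86 to 3.06 in OVX and 2517 to 5093 in Sham. The 10 osteoblast and osteocyte markers, which define bone, summed to 1278 to 1658 FPKM in J, 438 to 6454 in P, 503 to 3951 in PJ, 238 to 516 in OVX and 224 to 2706 in Sham. No marker of these 4 lists was at 0 in all libraries of a group. In such bulk samples, fewer cells of a type and less RNA per cell cannot be told apart.

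The members together held 3.26% to 4.40% of a library's FPKM. Their share was 3.74% ± 0.26 in J, 3.67% ± 0.32 in P, 3.50% ± 0.21 in PJ, 4.21% ± 0.25 in OVX and 3.73% ± 0.59 in Sham (SD, n = 3 each). Sham 3 at 4.39% lay as high as the highest OVX library at 4.40%, and P 2 stood above the other P libraries. Over the 15 libraries, 30 of the 72 tested members had a Pearson r of at least 0.8 with the members' median profile, 52 had at least 0.5, and 4 were below 0, with a median of 0.77. All 15 values share libraries and scaling, so this is a description.

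**Figure D2:**
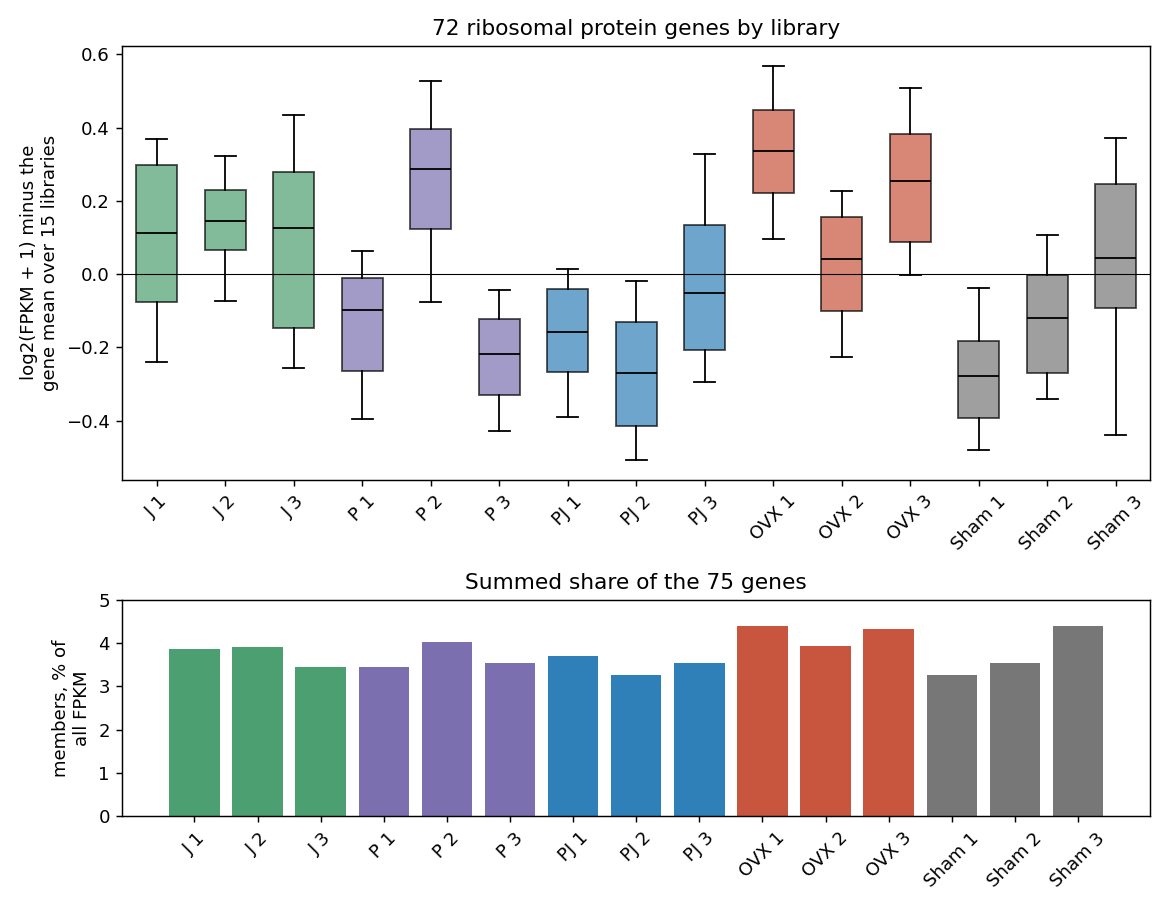
Upper panel: deviation of log2(FPKM + 1) from each gene's mean over 15 libraries, for the 72 tested ribosomal protein genes in each library (line, median; box, quartiles; whiskers, percentiles 10 and 90). Lower panel: summed FPKM of the 75 genes as a percentage of all FPKM; medians are highest in OVX 1, P 2 and OVX 3, and lowest in Sham 1 and PJ 2.

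OVX against Sham compares femurs of rats without and with ovaries, whose cell type markers also differed greatly. Ribosomal protein mRNAs were mostly somewhat higher in OVX: 61 of 72 had a positive difference, with a median log2 fold change of 0.33, against -0.04 over all 14416 genes tested. By limma with Benjamini-Hochberg adjustment, 18 rose (25%) and 1 fell (1.39%), while 25.3% of all genes rose and 28.9% fell. The share that rose was thus that of the background, and the share that fell was far below it. In 29 members (40.3%) the OVX libraries all lay above the Sham libraries, against 31.6% of all genes, and in 2 they all lay below, against 34.5%. Large-subunit genes gave 12 higher and 1 lower call of 39 tested, small-subunit genes 4 and 0 of 30, and stalk genes 2 and 0 of 3. The members that are Diamond-Blackfan anaemia genes in humans gave 6 higher and 0 lower of 22 tested, with a median of 0.40.

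Rps29, a zinc-binding protein of the small-subunit head, changed most. It had 38.9, 24.3 and 46.2 FPKM in OVX and 9.28, 12.3 and 9.98 FPKM in Sham. All OVX libraries lay above all Sham libraries, and the log2 fold change was 1.66 ± 0.26 (SE, limma adjusted p = 0.00014). Rpl15, a core large-subunit protein, had 174, 154 and 196 FPKM in OVX and 88.6, 108 and 123 FPKM in Sham, again without overlap. Its log2 fold change was 0.72 ± 0.15 (SE, limma adjusted p = 0.0015). Rpl10a, near the site where the deacylated tRNA leaves, had 235, 187 and 239 FPKM in OVX and 119, 125 and 142 FPKM in Sham. The groups did not overlap, and its log2 fold change was 0.76 ± 0.19 (SE, limma adjusted p = 0.0043). Copies held 68.1% of the summed level of Rpl10a. Neither Rpl10a-ps9, listed at 359 FPKM (0.36 ± 0.18), nor Rpl10a-ps1, listed at 2.85 FPKM (-0.57 ± 0.42), was called (SE, limma adjusted p = 0.11 and 0.27). Rpl6 had 169, 154 and 175 FPKM in OVX and 91.4, 109 and 130 FPKM in Sham, also apart, at a log2 fold change of 0.60 ± 0.15 (SE, limma adjusted p = 0.0039). Rpl37, the low row beside its copy, had 9.76, 7.17 and 7.17 FPKM in OVX and 3.98, 4.27 and 3.69 FPKM in Sham, at a log2 fold change of 0.85 ± 0.20 (SE, limma adjusted p = 0.0030). The copy Rpl37l1 averaged 971 ± 125 FPKM in OVX and 741 ± 128 FPKM in Sham (SD, n = 3 each).

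The stalk recruits the elongation factors that drive translation. Its base Rplp0 had 1434, 1273 and 1323 FPKM in OVX and 885, 939 and 1140 FPKM in Sham, at a log2 fold change of 0.45 ± 0.17 (SE, limma adjusted p = 0.040). The Rplp0 call passed in only 4 of the 14 alternatives run for single genes. Rplp2 had 34.6, 19.3 and 39.1 FPKM in OVX and 11.0, 13.3 and 12.0 FPKM in Sham, at a log2 fold change of 1.24 ± 0.41 (SE, limma adjusted p = 0.023). Its partner Rplp1 had 77.9, 58.0 and 53.9 FPKM in OVX and 47.8, 42.7 and 65.2 FPKM in Sham, where the groups overlap, and was not called (limma adjusted p = 0.29). The other members that rose, at log2 fold changes between 0.44 and 0.81, included Rpl18, Rpl32, Rpl8, Rpl7a, Rpl30, Rpl22, Rpl13 and Rpl27. In that order, they passed in 14, 12, 10, 10, 8, 9, 6 and 6 of the 14 alternatives. Copies held 79.0% of the summed level of Rpl32 and 99.2% of that of Rpl30. The main copies Rpl32-ps1 (-0.14 ± 0.29) and Rpl30l2 (-0.16 ± 0.20) did not rise and were not called (SE, limma adjusted p = 0.72 and 0.51).

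Rpl39, a very small protein that lines the exit tunnel for the nascent chain, was the only member called lower in OVX. It had 23.7, 32.9 and 13.5 FPKM in OVX and 56.2, 54.2 and 62.2 FPKM in Sham. Every OVX library was below every Sham library, at a log2 fold change of -1.34 ± 0.28 (SE, limma adjusted p = 0.0013). The values rest on 202 to 512 reads in OVX and 682 to 1006 reads in Sham. Rpl39 had 24.6, 25.6 and 23.7 FPKM in J, 30.8, 26.1 and 26.9 FPKM in P and 38.5, 45.1 and 22.02 FPKM in PJ, and no extract changed it by the test. It also had the lowest correlation with the members' median profile, at a Pearson r of -0.62 over 15 libraries. The next lowest were Rpl9 at -0.20, the lower of the 2 Rpl22 rows at -0.18, Rpl26 at -0.10 and a row of Rpl35a at 0.03. Of these 5, Rpl26 was the only one above 100 FPKM.

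In the comparison of OVX with Sham, all 12 erythroid, all 11 tested neutrophil, all 8 tested megakaryocyte and platelet and all 12 cell cycle markers also rose, and all 7 tested cartilage markers fell. B cell markers gave 8 higher and 0 lower of 10, endothelial markers 1 and 7 of 8, fibroblast matrix markers 0 and 7 of 8, osteoclast markers 0 and 1 of 8, skeletal muscle markers 0 and 1 of 7, and osteoblast and adipocyte markers no call. Their part in the ribosomal protein differences was not tested. The count of 18 was 7 (9.72%) without Sham 1, OVX 1 or OVX 3, where 21.5% to 22.4% of all genes rose. It was 10 (13.9%) without Sham 2, where 21.6% rose. Sham 3, P 2 and PJ 3 were each the highest of their group on the members' median profile. Without them together, chosen with their values known, the count was 35 (48.6%), where 29.3% rose, and this choice by itself favours more calls. It was 11 (15.3%) when values were rescaled to TPM, in which every library has the same sum, and 10 (13.9%) with mitochondrial and globin genes left out of the total, where 20.4% and 22.7% of all genes rose, so the share of members stood at, below or above the background with the setting. Rps29, Rpl15, Rpl37, Rpl6, Rpl10a, Rpl18 and Rpl39 passed in all 14 alternatives run for single genes. These 14 did not sum copies with members. Copies held 99.3% of the summed level of Rpl37, and its copy Rpl37l1 was not called (0.39 ± 0.22, SE, limma adjusted p = 0.14).

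**Figure D3:**
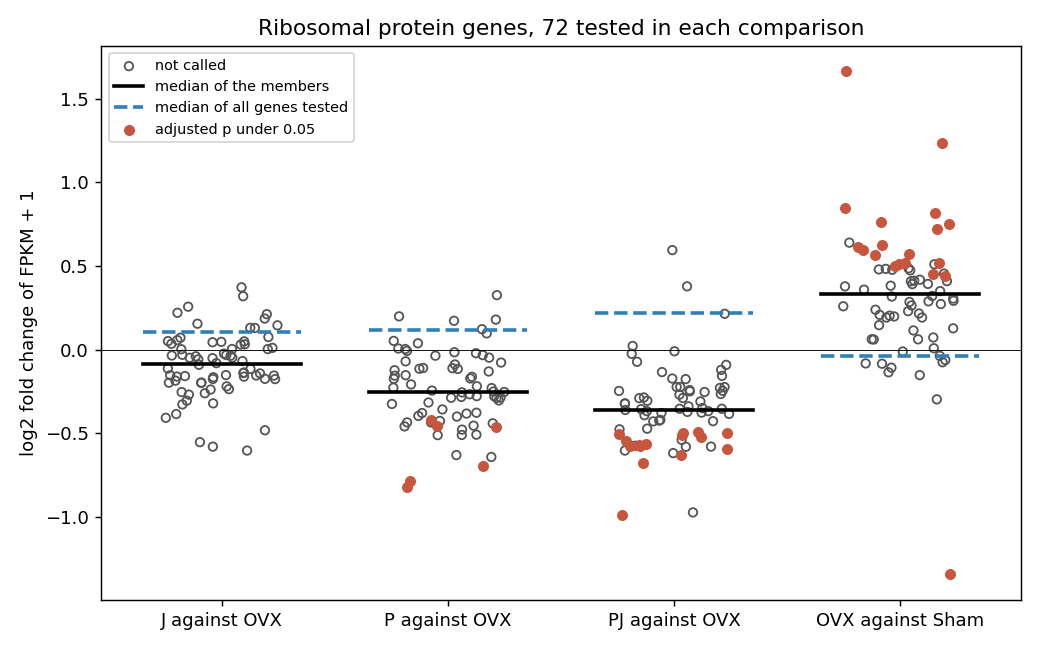
Log2 fold change of FPKM + 1 for the 72 tested ribosomal protein genes in each comparison (filled, limma adjusted p under 0.05; solid line, median of the members; dashed line, median of all genes tested). Members lie mostly above 0 in OVX against Sham, apart from Rpl39 at -1.34, and mostly below 0 in P and PJ against OVX.

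The 3 extract groups were each set against OVX, whose libraries they share as a reference. In PJ, 68 of 72 members had a negative difference, with a median log2 fold change of -0.36, against 0.22 over all genes. By limma, 15 fell (20.8%) and 0 rose, while 14.6% of all genes fell and 29.8% rose. None of the 72 had an unadjusted p under 0.05 in the upward direction. In 41 members (56.9%) the PJ libraries all lay below the OVX libraries, against 19.2% of all genes, and in 0 they all lay above, against 39.3%. All 38 members with at least 100 FPKM had a negative difference, and 11 of them were called. The calls comprised 8 of 39 large-subunit, 6 of 30 small-subunit and 1 of 3 stalk genes, and 5 of the 22 human Diamond-Blackfan anaemia genes.

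Rps29 had 14.9, 13.6 and 25.2 FPKM in PJ against 38.9, 24.3 and 46.2 FPKM in OVX. Only PJ 3 and OVX 2 overlap, and the log2 fold change was -0.99 ± 0.26 (SE, limma adjusted p = 0.0078). Rpl15 had 121, 102 and 127 FPKM in PJ against 174, 154 and 196 FPKM in OVX, without overlap, at -0.57 ± 0.15 (SE, limma adjusted p = 0.0089). Rpl10a had 123, 110 and 186 FPKM in PJ against 235, 187 and 239 FPKM in OVX. PJ 3 was just below the lowest OVX library, and the log2 fold change was -0.68 ± 0.19 (SE, limma adjusted p = 0.012). The copy Rpl10a-ps9, listed above Rpl10a, was not called (-0.46 ± 0.18, SE, limma adjusted p = 0.052). Rpl6 had 123, 100.98 and 131 FPKM in PJ against 169, 154 and 175 FPKM in OVX, at -0.49 ± 0.15 (SE, limma adjusted p = 0.016). Rplp0 had 945, 853 and 1035 FPKM in PJ against 1434, 1273 and 1323 FPKM in OVX, at -0.51 ± 0.17 (SE, limma adjusted p = 0.028). This Rplp0 call passed in 7 of the 14 alternatives run for single genes. The other members that fell, at log2 fold changes between -0.50 and -0.59, included Rpl12, Rpl22, Rpl18, Rpl37, Rpl8, Rps12, Rps3a and Rps23. In that order, they passed in 10, 12, 9, 8, 8, 5, 5 and 5 of the 14 alternatives. The copy Rpl37l1, listed far above Rpl37, was not called (-0.48 ± 0.22, SE, limma adjusted p = 0.089).

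In P against OVX, 62 of 72 members had a negative difference, with a median log2 fold change of -0.25, against 0.12 over all genes. By limma, 6 fell (8.33%) and 0 rose, while 15% of all genes fell and 24.2% rose, so both shares were below the background. In 12 members the P libraries all lay below the OVX libraries (background 20.8%), and in 0 they all lay above (background 30.1%). All 30 small-subunit genes had a negative difference, of which 2 were called, and so did 29 of 39 large-subunit genes, of which 4 were called. Rps20, a small-subunit protein listed at a low level, had 1.72, 0.75 and 1.92 FPKM in P against 3.88, 3.10 and 2.83 FPKM in OVX. Its groups did not overlap, at a log2 fold change of -0.82 ± 0.23 (SE, limma adjusted p = 0.013), but P 2 rests on 16 reads. Rpl37 had 5.10, 5.83 and 3.04 FPKM in P against 9.76, 7.17 and 7.17 FPKM in OVX, at -0.70 ± 0.20 (SE, limma adjusted p = 0.015). Rps29 had 19.6, 24.7 and 16.4 FPKM in P against 38.9, 24.3 and 46.2 FPKM in OVX. P 2 lay just above OVX 2, and the log2 fold change was -0.79 ± 0.26 (SE, limma adjusted p = 0.028). The tested row of Rpl30 fell by 0.46 on the log2 scale, Rpl18 fell by 0.46 and Rpl15 fell by 0.42, with limma adjusted p of 0.028, 0.041 and 0.044. Copies held most of the summed level of Rpl30, Rpl37 and Rps20. The main copies Rpl30l2 (0.17 ± 0.20), Rpl37l1 (-0.17 ± 0.22) and Rps20-ps10 (-0.52 ± 0.24) were not called (SE, limma adjusted p = 0.53, 0.57 and 0.099).

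In J against OVX, by limma, 0 of 72 members passed in either direction, while 3.27% of all genes rose and 2.79% fell, and 3 members had an unadjusted p under 0.05, all with negative differences. The median log2 fold change was -0.09, against 0.11 over all genes, with 48 negative and 24 positive differences. In 9 members (12.5%) the J libraries all lay below the OVX libraries, against 14.3% of all genes, and in 0 they all lay above, against 23.3%. A member's 95% interval, not adjusted for the number of tests, reached 0.45 to either side of its log2 fold change at the median. The adjusted threshold is stricter, so changes of the size seen for Rpl15 in PJ could be missed in J. Rps29 had 22.4, 21.9 and 27.0 FPKM in J against 38.9, 24.3 and 46.2 FPKM in OVX. Rpl15 had 132, 153 and 131 FPKM in J against 174, 154 and 196 FPKM in OVX, all J libraries below all OVX libraries. Rpl26 had 82.6, 127 and 66.6 FPKM in J against 118, 130 and 161 FPKM in OVX, at a log2 fold change of -0.60 ± 0.22 (SE, limma adjusted p = 0.12).

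Beside these comparisons, all 12 erythroid and all 12 cell cycle markers fell in PJ and in P against OVX, as did 11 of 11 neutrophil markers in PJ and 10 of 11 in P, and 7 of 8 megakaryocyte markers in each. Endothelial markers gave 7 higher and 1 lower call of 8 in PJ and in P, fibroblast matrix markers 7 higher of 8 in each, adipocyte markers 9 higher of 9 in PJ and 3 in P, osteoclast markers 6 higher of 8 in PJ and 5 in P, osteoblast markers 2 higher of 10 in PJ and 4 in P, and cartilage markers 2 higher of 7 in PJ and 3 in P. B cell markers gave 1 higher of 10 in PJ and 0 in P, and skeletal muscle markers gave no call. In J, 1 erythroid, 2 megakaryocyte, 4 cell cycle and 1 endothelial marker fell, 2 endothelial and 2 fibroblast matrix markers rose, and the other lists gave no call. The part of these markers in the ribosomal protein differences was not tested. The PJ count of 15, above the background share, fell below it in several settings: 4 (5.56%) without OVX 1, 6 (8.33%) without OVX 3 or PJ 1 and 3 (4.17%) without PJ 2, where 11.2% to 12.6% of all genes fell, and 5 (6.94%) after rescaling to TPM, where 10.7% fell. It was 7 (9.33%) with no filter on low values, where 9.34% of all genes fell, 23 (31.9%) without P 2, where 15.7% fell, 34 (47.2%) without Sham 3, P 2 and PJ 3 together, where 18.0% fell, and 37 (51.4%) under median-ratio scaling, where 22.9% fell. The P count of 6 was 0 without OVX 1, 2 without OVX 3, 3 without P 1 and 1 without P 3, and 14 (19.4%, against 21.5% of all genes) under median-ratio scaling, all below the background, but 18 (25%, against 13.0%) without P 2 and 29 (40.3%, against 15.4%) without those 3 libraries. The order of the P and PJ counts also depended on the setting, with 5 each under TPM and, without PJ 2, 7 in P and 3 in PJ.

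**Figure D4:**
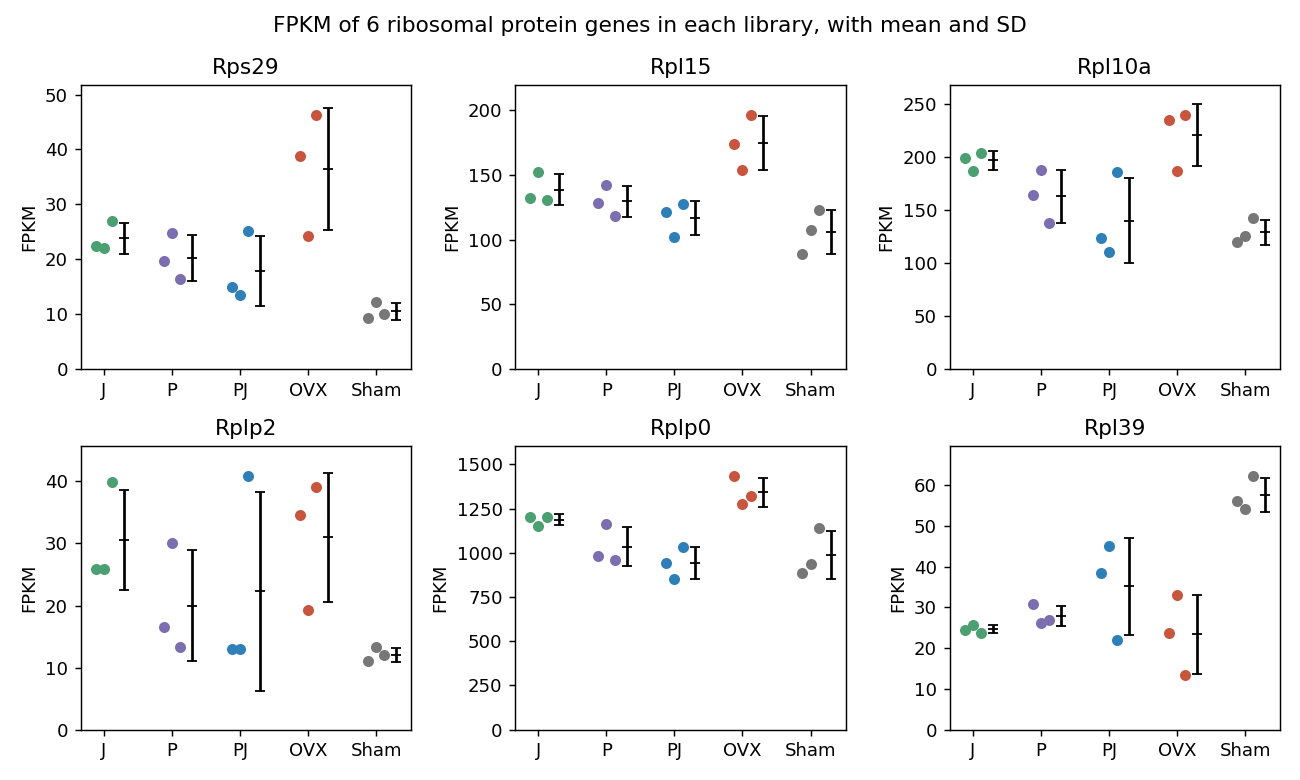
FPKM of Rps29, Rpl15, Rpl10a, Rplp2, Rplp0 and Rpl39 in each library (points) with the mean and SD of 3 libraries (black) in J, P, PJ, OVX and Sham. OVX lies above Sham in the first 5 genes and below it in Rpl39, and Rplp2 in PJ is spread between 13.0 and 40.9 FPKM.

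The extract groups were also compared with each other. By limma, 0 of 72 members were called in PJ against P, in PJ against J or in P against J, while 0%, 14.3% and 7.42% of all genes were called in these comparisons. At an unadjusted p under 0.05 there were 0, 15 and 6 members lower in the group named first, against 1.13%, 11.2% and 12.5% of all genes, and 1, 1 and 2 higher, against 0.923%, 20.7% and 15.8%. In 30 members (41.7%) the PJ libraries all lay below the J libraries, against 10.5% of all genes, and in 1 they all lay above, against 22.5%. The P libraries all lay below J in 9 members (12.5%, against 12.9%) and above in 2 (background 16.7%), and PJ lay below P in 3 (4.17%, against 1.22%) and above in 0 (background 2.8%). The median log2 fold change of the members was -0.14 in PJ against P, -0.30 in PJ against J and -0.18 in P against J, and over all genes 0.08, 0.14 and 0.04. Calls in PJ against J numbered 6 without PJ 3, 1 without J 2 and 26 without Sham 3, P 2 and PJ 3 together, and in P against J 3 without P 2, 1 without J 2 and 18 without those 3. The share of all genes called in these settings is not given here, so these counts cannot be set against a background. With all 15 libraries no single member passed between extracts, so the calls of PJ against OVX are not shown to be particular to the combination, although PJ and J libraries did not overlap in many members.

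Several members with roles beyond translation were among those with little difference. Rpl5 and Rpl11 bind the ribosomal 5S RNA and, when free, inhibit Mdm2 and so stabilise p53. Rpl5 had 273, 257 and 266 FPKM in OVX and 240, 269 and 343 FPKM in Sham. Rpl11 had 464, 432 and 484 FPKM in OVX and 367, 405 and 575 FPKM in Sham. Groups overlap for both, and neither was called in any comparison with OVX (log2 fold changes between -0.18 and 0.06). Rpl3, at the peptidyl transferase centre, had 463, 447 and 497 FPKM in OVX and 423, 487 and 511 FPKM in Sham, at a log2 fold change of -0.01 ± 0.15 (SE, limma adjusted p = 0.95). Rpl19 had 793, 758 and 739 FPKM in OVX and 838, 874 and 1128 FPKM in Sham, each OVX library below each Sham library, but was not called (log2 fold change -0.30 ± 0.20, SE, limma adjusted p = 0.24). Rpl10, which completes the subunit joining site, gave -0.06 and Rps15 gave 0.29, neither called.

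Rps6, the substrate of the S6 kinases downstream of mTOR, came near the threshold. Its main row had 656, 580 and 629 FPKM in OVX and 420, 449 and 543 FPKM in Sham, without overlap, at a log2 fold change of 0.41 ± 0.17 (SE, limma adjusted p = 0.054). It had 470, 439 and 476 FPKM in PJ, at -0.43 ± 0.17 against OVX (SE, limma adjusted p = 0.052). Rps19, the gene most often mutated in Diamond-Blackfan anaemia, was listed at only 4.08 to 9.07 FPKM and had 8.64, 4.84 and 6.97 FPKM in OVX and 4.59, 6.15 and 4.08 FPKM in Sham. It was not called in any of the 4 comparisons, nor were Rpl13a, Rps4x and Rps27a. Rpl17 was the most uneven of the members above 100 FPKM named here, with 171, 155 and 587 FPKM in J, 125, 414 and 245 FPKM in P, 100.6, 85.7 and 149 FPKM in PJ, 188, 281 and 187 FPKM in OVX and 209, 233 and 104 FPKM in Sham. It was chosen after its values were seen.

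Among the genes outside the group whose levels followed the members' median profile most closely over the 15 libraries were Rps27a-ps1 (Pearson r 0.96), Rpl37l1 (0.96), Rps15al4 (0.94) and LOC102555453 (0.94). Among ribosomal proteins with other names, Rack1, a scaffold on the small-subunit head, rose in OVX against Sham (0.46 ± 0.17, SE, limma adjusted p = 0.032). It fell in PJ against OVX (-0.52 ± 0.17, SE, limma adjusted p = 0.024), while Fau and Rpsa were not called in any of the 4 comparisons. Of the 38 tested copy rows, 4 rose and 0 fell in OVX against Sham, 0 rose and 3 fell in PJ against OVX, 0 rose and 1 fell in P against OVX, and none was called in J against OVX.

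Of 8 tested paralogs and like genes, 2 rose and 2 fell in OVX against Sham, 0 rose and 1 fell in J against OVX, and 1 rose and 1 fell in P and in PJ against OVX. Rpl3l, which replaces Rpl3 in striated muscle in mice and humans, had 55.9, 18.3 and 18.0 FPKM in J, 27.4, 12.4 and 14.7 FPKM in P, 28.0, 14.4 and 23.6 FPKM in PJ, 23.5, 27.7 and 24.8 FPKM in OVX and 1.82, 2.25 and 2.71 FPKM in Sham. Every library of an ovariectomised group lay above every Sham library, and the log2 fold change of OVX against Sham was 3.02 ± 0.40 (SE, limma adjusted p = 3.8e-05). The 8 skeletal muscle markers found summed to 8.38 to 98.0 FPKM in J, 8.37 to 899 in P, 8.44 to 10.1 in PJ, 4.89 to 67.9 in OVX and 19.7 to 251 in Sham, with Myh7 at 0 in all PJ libraries. Their ranges in OVX and Sham overlap, and their part in the Rpl3l difference was not tested. Rpl39l, the paralog of Rpl39 known from mouse male germ cells, had 0.43, 0.90 and 1.39 FPKM in OVX and 3.37, 3.32 and 6.37 FPKM in Sham. It fell in OVX against Sham (-1.47 ± 0.26, SE, limma adjusted p = 0.00033) and rose against OVX in P (1.45 ± 0.26, SE, limma adjusted p = 0.00086) and PJ (1.26 ± 0.26, SE, limma adjusted p = 0.0017). Rps27l, a p53 target in human cells, had 59.9, 48.3 and 63.6 FPKM in OVX and 28.5, 31.8 and 30.6 FPKM in Sham (0.89 ± 0.13, SE, limma adjusted p = 7.3e-05). It was the only gene of this list called in J against OVX, with 32.7, 35.7 and 33.0 FPKM in J (-0.73 ± 0.13, SE, limma adjusted p = 0.011), and it fell in P and PJ as well. Rps4y2 fell in OVX against Sham, at 2.65 against 9.85 FPKM on average. It had 1.29, 4.90 and 1.75 FPKM in OVX and 2.75, 12.5 and 14.3 FPKM in Sham, where the groups overlap.

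Genes that build ribosomes were measured beside the proteins that compose them. Of 39 tested biogenesis factors, 19 rose (background 25.3%) and 2 fell (background 28.9%) in OVX against Sham, with a median log2 fold change of 0.40. Fbl, the methyltransferase of the box C/D particles, averaged 78.6 FPKM in OVX and 38.0 FPKM in Sham (1.04 ± 0.16, SE, limma adjusted p = 0.00013), followed by Nip7, Rrs1 and Nop58. In P against OVX 1 rose and 10 fell (background 24.2% and 15%), and in PJ 2 rose and 10 fell (background 29.8% and 14.6%), with Fbl at 46.5 FPKM in P and 51.0 FPKM in PJ and Nhp2 at 13.6 and 12.0 FPKM, against 23.1 FPKM in OVX. In J none of the 39 was called by limma. The difference between these shares and those of the ribosomal proteins was not tested.

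Of 14 tested translation factors and other genes with a pyrimidine tract, 6 rose and 0 fell in OVX against Sham, where 25.3% of all genes rose and 28.9% fell. Against OVX, 0 rose and 1 fell in J (background 3.27% and 2.79%), and 0 rose and 4 fell in P (background 24.2% and 15%) and in PJ (background 29.8% and 14.6%). The same background applies to the other lists given here. Pabpc1, the poly(A)-binding protein, averaged 627 FPKM in OVX and 162 FPKM in Sham (1.96 ± 0.18, SE, limma adjusted p = 2.0e-06), and it fell to 399 FPKM in J, 254 FPKM in P and 229 FPKM in PJ. Npm1, Hnrnpa1 and Eef1b2 rose as well in OVX and fell in P and PJ. Of 14 tested genes of RNA polymerase I transcription, which makes ribosomal RNA, 5 rose and 0 fell in OVX (Taf1d, Polr1c, Ubtf, Polr1f and Polr1d), none was called in J, 1 rose and 2 fell in P, and 3 rose and 2 fell in PJ. Of 21 tested growth regulators of ribosome synthesis, 7 rose and 1 fell in OVX, 1 rose in J, 1 rose and 4 fell in P, and 2 rose and 2 fell in PJ, counts not set apart from these background shares by a test. The gene of this list with the smallest p was Mxd4, an antagonist of Myc for its partner Max, which averaged 22.5 FPKM in OVX and 55.5 FPKM in Sham (-1.25 ± 0.18, SE, limma adjusted p = 9.4e-05) and was higher in J at 37.7, P at 50.2 and PJ at 63.1 FPKM, each called against OVX. Myc itself averaged 23.8 FPKM in OVX and was not called in any of the 4 comparisons. The 13 mitochondrially encoded genes gave no call, and the 3 tested globin genes rose in OVX against Sham, fell in P and PJ against OVX, and were not called in J.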

How the data were processed

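The authors deposited 1 table per library with a value per gene in FPKM. The column is named for counts per the file headers, but its values are fractional and scale with gene length, and a column named FPKM was empty in all 15 files. Reads were handled with STAR 2.7.11a, featureCounts 2.0.6 and fastp 0.23.4 and build mRatBN7.2, per the submitters' processing notes, which give no roles. Effective lengths and reads were inferred from the whole steps of the deposited FPKM values, within 0.05 of a whole read, and 97.0% of the genes tried had such a length. The count floor of 3 reads is 0.0492 to 0.0873 reads per 1000000 reads and covers counting error only. With limma 3.58.1 (R 4.3.3), log2(FPKM + 1) of the 14416 genes whose mean FPKM reached 1 was modelled by group in all 15 libraries, with a trend in the variance and 10 residual degrees of freedom. Fold changes on this scale understate those of low genes. The two-sided p-values were adjusted by Benjamini-Hochberg over all tested genes, at a threshold of 0.05, and the procedure was checked on simulated data. The members, the gene lists and the tests were chosen with earlier results of these data known.

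Named members were the 5 of smallest p per direction among those called in each of the 4 main comparisons, the 5 of highest level, the 5 with the lowest correlation with the members' median profile, 12 fixed by name (Rplp0, Rplp1, Rplp2, Rpl3, Rpl5, Rpl10, Rpl11, Rpl13a, Rps4x, Rps6, Rps19 and Rps27a), the 5 other genes most like that profile and up to 4 genes of each list by p. Other called members and Rpl17 were named after their values were seen, and a few genes that the rule selects are not reported here. Names by the rule that no row carries (Rpl27a, Rpl7, Rpl41, Rps26, Rpl36, Rpl37a and Rps18) were not analysed here. Replicate numbers did not pair the libraries: correlations of same-numbered libraries' deviations lay between -0.17 and 0.22. Alternatives were a pseudocount of 0.1, no filter, TPM, median-ratio scaling, a total without mitochondrial and globin genes, fits of only the groups compared, a replicate block, each library left out in turn, rows of 1 name summed and, chosen after seeing the data, copies summed with their members and Sham 3, P 2 and PJ 3 left out together.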

Additional observations from a re-analysis of the deposited data

How the results depend on the processing

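No called member's fold change and no median of the members changed sign, but the members' share of calls against that of all genes did change sides, as given for OVX against Sham, P and PJ in the comparisons above. In OVX against Sham, the 18 higher calls became 11 after rescaling to TPM and 10 with mitochondrial and globin genes out of the total. In PJ against OVX, the 15 lower calls became 7 (9.33%, all genes 9.34%) with no filter, 5 (6.94%, all genes 10.7%) with TPM and 37 (51.4%, all genes 22.9%) with median-ratio scaling, where the median moved to -0.60. In P against OVX, the 6 lower calls became 14 with median-ratio scaling, 3 without mitochondrial and globin genes, 2 with only the groups compared and 3 with copies summed. J against OVX gave 1 lower call with median-ratio scaling. P against J gave 1 call without mitochondrial and globin genes and 1 with the replicate block. PJ against J gave 4 calls with median-ratio scaling, 1 without mitochondrial and globin genes and 1 with copies summed. The counts between extracts, here and with libraries left out, stand without the share of all genes in the same setting. With the replicate block the other counts were 15 higher in OVX, 5 lower in P and 12 lower in PJ. Without mitochondrial and globin genes the members' share was 5.00% ± 0.36 in J, 4.89% ± 1.35 in P, 4.13% ± 0.23 in PJ, 5.28% ± 0.32 in OVX and 4.67% ± 0.44 in Sham (SD, n = 3 each). P 2 was at 6.45%, P 1 at 4.21% and P 3 at 4.03%. Mitochondrial genes held 35.9% of the FPKM of P 2, 17.6% of that of P 1 and 11.2% of that of P 3. Median-ratio scaling moved the median of all genes in PJ against OVX to 0.01, against 0.22, and in P against OVX to -0.01, against 0.12, and the higher genes' part of all calls to 48.9%, against 67.1%, in P to 48.7%, against 61.7%, and in J to 35.2%, against 54.0%. The cause of these shifts was not tested.

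With libraries left out, singly or Sham 3, P 2 and PJ 3 together, calls lay between 7 and 35 higher in OVX against Sham, 0 and 1 lower in J, 0 and 29 lower in P, 3 and 34 lower and 0 and 1 higher in PJ against OVX, 0 and 18 in P against J, and 0 and 26 in PJ against J. Leaving out all 3 gave the counts of 35, 29, 34, 18 and 26. Each of these 3 libraries was the highest of its group on the members' median profile, so leaving them out by itself favours more calls. Median log2 fold changes lay between 0.25 and 0.43 in OVX against Sham, -0.20 and -0.04 in J, -0.40 and -0.15 in P and -0.45 and -0.29 in PJ against OVX. Shares lay between 3.65% and 3.89% in J, 3.49% and 3.78% in P, 3.41% and 3.62% in PJ, 4.12% and 4.35% in OVX, and 3.40% and 3.97% in Sham. In PJ against OVX, Rps29 and Rpl15 passed in all 14 alternatives for single genes and Rpl10a in 13, and in P against OVX no member did.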
